A study of Homo sapiens with 4 samples.

Results

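The microRNA genes examined here were MIR124-1, MIR124-2, MIR124-3, MIR9-1, MIR9-2, MIR9-3, MIR132, MIR212, MIR153-1 and the MIR7-3 host gene MIR7-3HG, 10 genes whose microRNAs are best known from neurons and neuroendocrine cells. They were listed by name, with earlier results of these data known. A binding site was assigned to a gene where any base of it lay in the gene or within 10 kb of it on hg19 (GRCh37). Of the 10 genes, 9 could be placed on that build. The comparison is with 3061 microRNA genes, which include the placed members other than MIR7-3HG, a long noncoding RNA gene, and with 64440 annotated genes of all kinds. The sites come from ChIP-seq of NRSF/REST in H295R/TR SF-1 cells. These derive from H295R, a human adrenocortical tumour line, and in them doxycycline switches on extra Steroidogenic Factor-1 (SF-1), the nuclear receptor that drives adrenal steroid production. The basal library came from cells without doxycycline, and the increased-dosage library from cells given doxycycline for 3 days (1 mg/mL in the sample labels, 1 µg/ml in the study's methods). There was 1 NRSF/REST library per dosage, so no difference between dosages has a replicate check and no test was made. The 2 input DNA libraries were not analysed here.

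NRSF/REST is a zinc finger repressor that binds a long DNA element, called RE1 or NRSE, and brings in corepressor complexes through both ends of the protein. It keeps neuronal genes silent outside the nervous system, microRNA genes among them. Among these microRNAs, miR-9 is known to target the REST transcript and so to act back on the repressor. MiR-124 targets messages that are held low in neurons. An adrenocortical cell is not a neuron, although it secretes hormones and shares some genes with neuroendocrine cells.

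Mature microRNAs are shown because they fall into families by their seed, bases 2 to 8, which is in capitals. Those of the MIR124 genes, and the 5p products of MIR132 and MIR212, whose seeds differ from each other, are not shown. The sequences are those of RefSeq (GRCh38.p14), 5′ to 3′. The 3 copies of MIR9 encode the same pair of products, and miR-132-3p and miR-212-3p, which are made from neighbouring hairpins, carry the same seed.
hsa-miR-9-5p (MIR9-1, MIR9-2, MIR9-3): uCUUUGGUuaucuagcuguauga
hsa-miR-9-3p (MIR9-1, MIR9-2, MIR9-3): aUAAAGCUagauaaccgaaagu
hsa-miR-132-3p (MIR132): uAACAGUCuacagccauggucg
hsa-miR-212-3p (MIR212): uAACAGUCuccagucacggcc
hsa-miR-153-3p (MIR153-1): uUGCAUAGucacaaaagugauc
hsa-miR-7-5p (MIR7-3, in MIR7-3HG): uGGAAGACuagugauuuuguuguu

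The DNA that NRSF/REST recognises was searched as CTGTCCNNGGTGCTG, that is CTGTCC and GGTGCTG set 2 bases apart, on both strands and with at most 2 mismatches over the 13 fixed bases. The windows below, read from GRCh37 on the strand of the match, show this consensus in capitals with 23 bases to either side. They are the matches inside sites near a member other than MIR124-2, whose pair of matches is described further on but not printed. The match inside the site near the 5′ end of PTPRN, the host of MIR153-1, is also shown. The cores at MIR124-3 (downstream site), at MIR132 and MIR212, and at PTPRN were the same 15 bases, CTGTCCGCGGTGCTG. That core was found in 46 of the 594 sites with an unmismatched consensus at the basal dosage (7.74%). The core at MIR9-1, CTGTCCGTGGTGCTG, was found in 98 of them (16.5%).
MIR124-3, downstream site (chr20:61810320-61810380, plus strand): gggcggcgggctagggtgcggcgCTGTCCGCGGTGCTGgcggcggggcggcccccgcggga
MIR124-3, upstream site (chr20:61807437-61807497, minus strand): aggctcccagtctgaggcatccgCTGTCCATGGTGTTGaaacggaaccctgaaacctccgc
MIR9-1 (chr1:156384433-156384493, plus strand): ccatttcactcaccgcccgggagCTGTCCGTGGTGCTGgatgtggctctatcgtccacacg
MIR9-3 (chr15:89908177-89908237, minus strand): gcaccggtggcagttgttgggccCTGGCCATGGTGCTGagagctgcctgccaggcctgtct
MIR132 and MIR212 (chr17:1953433-1953493, minus strand): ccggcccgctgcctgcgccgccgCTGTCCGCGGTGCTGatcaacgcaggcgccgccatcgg
MIR7-3HG, first match (chr19:4769564-4769624, minus strand): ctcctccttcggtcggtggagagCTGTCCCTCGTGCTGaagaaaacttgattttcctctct
MIR7-3HG, second match (chr19:4769723-4769783, minus strand): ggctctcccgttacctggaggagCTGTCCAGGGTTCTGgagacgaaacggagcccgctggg
PTPRN, host of MIR153-1 (chr2:220173022-220173082, plus strand): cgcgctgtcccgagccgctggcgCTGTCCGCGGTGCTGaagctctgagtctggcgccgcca

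With positions counted from 1 at the 5′ end of the consensus, the single substitutions were C13T at the upstream site of MIR124-3, T4G at MIR9-3, and G9C and G12T at the MIR7-3HG matches. The longer RE1 element has GGCG before these 15 bases and AA after them. Of those 6 further bases, the PTPRN match had 6, and each match printed above at a member had 4. The matches at MIR124-2 had 5 in the site downstream of the hairpin and 3 in the site upstream of it. The median over the best match of each of the 2164 basal sites with the consensus was 3, and 16.2% of those sites had 5 or 6. A match describes the sequence only and is not itself a measurement of binding.

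Of the 9 placed genes, 7 had a site within 10 kb in the basal list, and the same number in the increased-dosage list, which is 77.8% (95% Wilson interval 45.3 to 93.7). They were MIR124-2, MIR124-3, MIR9-1, MIR9-3, MIR132, MIR212 and MIR7-3HG at each dosage. By the same rule 149 of the 3061 microRNA genes had a site in the basal list (4.87%) and 142 in the increased-dosage list (4.64%). Over genes of all kinds the shares were 8.48% and 8.05%. The 2 placed genes without a site were MIR9-2 and MIR153-1. The genes are not independent of each other, since MIR132 and MIR212 lie side by side and share a site, and the intervals cover counting error only.

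There were 12 sites near the members in the basal list and 13 in the increased-dosage list, of 5323 and 5059 sites in all. Each list gives a site's boundaries, on 50 bp steps, an order number, and a score that is 1000 for every site, so width and order number were the measures of a site's size. Order numbers run from 1 for the first site listed, and Spearman's rho between order number and width across the sites of a list was -0.95 at each dosage, so the first sites are the wide ones. Read depth could not be taken from these lists.

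**Figure D1:**
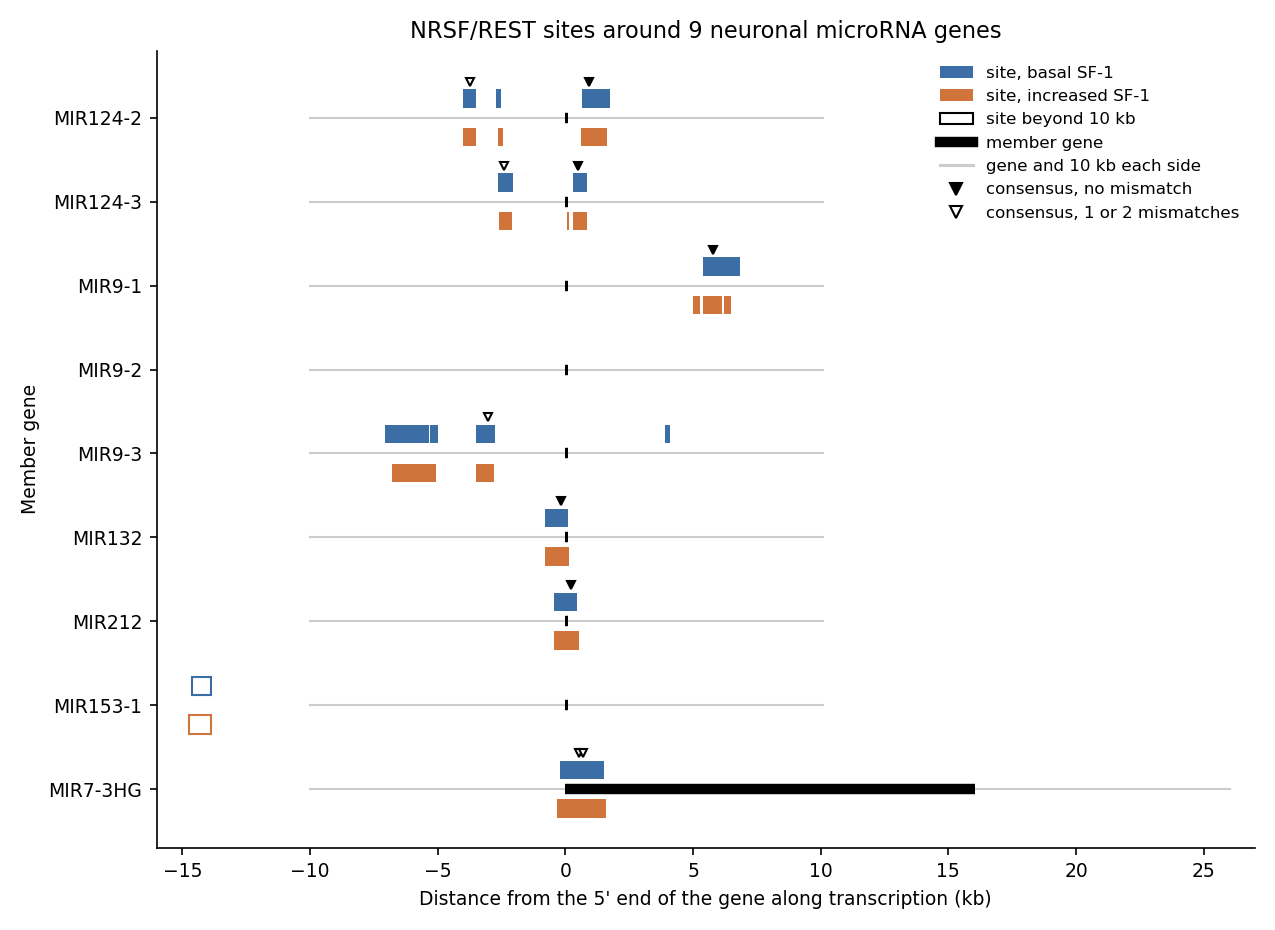
NRSF/REST sites around the 9 placed genes, drawn to scale by distance in kb from the gene's 5′ end along transcription, with basal sites above and increased-dosage sites below each line. Triangles mark the consensus in basal sites, filled for no mismatch. MIR9-2 has no site, and the sites of MIR153-1 (open boxes) lie beyond the 10 kb limit.

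The miR-124 genes were considered first. MiR-124 is among the most abundant microRNAs of neurons. MIR124-2 lies on chromosome 8 from 65291706 to 65291814 on the plus strand, inside the long noncoding host transcript MIR124-2HG, and had 3 sites at each dosage. The site just downstream of the hairpin ran from 65292351 to 65293449 at the basal dosage, 1099 bp wide, with order number 154 and 537 bp from the gene. At the increased dosage it ran from 65292301 to 65293349, 1049 bp wide, with order number 144 and 487 bp from the gene. It overlapped an exon of the host and held the consensus with no mismatch, 830 bp beyond the hairpin.

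The other sites of MIR124-2 lay upstream of the hairpin in an intron of MIR124-2HG. The one from 65287701 to 65288199 had the same boundaries at both dosages, a width of 499 bp, and order numbers of 1897 and 1829 at the basal and increased dosages. It held the consensus with 2 mismatches. A smaller one of 199 bp, with order numbers 3806 and 3718, started at 65289001 in the basal list and 65289051 in the other, and its best match had 3 mismatches. The nearest protein-coding gene, BHLHE22, which encodes a neural transcription factor, was 199473 bp from the closest of the basal sites.

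MIR124-3 lies on chromosome 20 from 61809852 to 61809938 on the plus strand. No host transcript on its own strand is annotated, and its sites fell in an intron of a long noncoding RNA on the other strand, ENSG00000231977. The site downstream of the hairpin ran from 61810151 to 61810699 at both dosages, 549 bp wide and 213 bp from the gene, with order number 1694 at the basal and 1596 at the increased dosage. It held the consensus with no mismatch, 405 bp beyond the hairpin. The upstream site was 599 bp wide at the basal dosage (61807201 to 61807799, order number 2017) and 499 bp wide at the increased dosage (61807251 to 61807749, order number 1866), and held the consensus with 1 mismatch.

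A further site of 99 bp, from 61809901 to 61809999, overlapped the MIR124-3 hairpin itself and was listed only at the increased dosage. It was among the narrowest of its list, with order number 4958 of 5059, and it held no consensus. The closest protein-coding gene was YTHDF1, which encodes a reader of methylated RNA, 16082 bp from the downstream site.

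Among the matches with up to 2 mismatches that lay in sites, MIR124-2 and MIR124-3 shared an arrangement. In each gene a consensus with no mismatch lay downstream of the hairpin on the hairpin's own strand. In each, a consensus with mismatches lay upstream on the opposite strand, 3725 bp from the MIR124-2 hairpin and 2378 bp from the MIR124-3 hairpin. Both elements lay in sites at both dosages, which the choice of matches in sites partly fixed. Matches in no site did not all follow the arrangement. Upstream matches on the plus strand lay 4691 bp from MIR124-2 and 3255 bp from MIR124-3, and a minus-strand match lay 1981 bp downstream of MIR124-3. Others at MIR124-3 lay 7090 and 9331 bp upstream on the minus strand and 9435 bp downstream on the plus strand. Other genes were not searched for this arrangement. The downstream sites differed in size, at 1099 and 549 bp in the basal list, where the upper quartile of all widths was 549 bp.

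MIR124-1 itself could not be placed with the annotation used here and was counted in no share above. Its host transcript MIR124-1HG lies on chromosome 8 from 9757381 to 9776743 on the minus strand. A site lay 5708 bp upstream of the host at both dosages, in no annotated gene. It ran from 9782451 to 9782899 at the basal dosage (449 bp, order number 1607) and to 9782949 at the increased dosage (499 bp, order number 1112). The consensus in it had 2 mismatches.

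The miR-9 genes, whose products act in neural progenitors and neurons, differed from each other. MIR9-1 lies on chromosome 1 from 156390123 to 156390230 in the long noncoding host MIR9-1HG. GENCODE gives the plus strand, but the RefSeq hairpin matched the minus strand, which is also that of the host, and the minus strand was used. A single site of 1449 bp lay downstream of the hairpin at the basal dosage, from 156383401 to 156384849, with order number 341 and 5274 bp from the gene. It held the consensus with no mismatch. Of the sites of that list, 99.4% were narrower.

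At the increased dosage that basal site of MIR9-1 was met by 2 sites, of 749 bp (156384101 to 156384849, order number 313) and 249 bp (156383751 to 156383999, order number 2730). The wider of them held that same match, and 85.6% of the sites of the increased-dosage list were narrower than it. Another site of 299 bp, from 156384951 to 156385249, was listed only at the increased dosage and had no match up to 3 mismatches. All these sites overlapped exons of MIR9-1HG, and RHBG, an ammonium transporter gene, was the nearest protein-coding gene, 28390 bp from the basal site.

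MIR9-2, placed on chromosome 5 from 87962671 to 87962757 by an exact match of its RefSeq hairpin, had no site. The nearest was 213472 bp away at the basal and 213522 bp at the increased dosage. Its host, LINC00461, a long noncoding gene of 183512 bp, also had no site in it or within 10 kb of it. No consensus with up to 2 mismatches lay within 10 kb of the hairpin. MIR9-2 was the only placed gene without such a match.

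MIR9-3 lies on chromosome 15 from 89911248 to 89911337 on the plus strand in the long noncoding host MIR9-3HG, and had the most sites of any member at the basal dosage, 4 in number. The widest spanned the 5′ end of the host, from 89904201 to 89905899 (1699 bp, order number 43) at the basal and from 89904451 to 89906199 (1749 bp, order number 45) at the increased dosage. It held no consensus within 2 mismatches. Its best match had 3, and it held the CTGTCC and GGTGCTG parts, each with at most 1 mismatch, at the wider spacings of 5 and 10 bases. Such parts 0 to 20 bases apart, the spacing of 2 included, were in 51.9% of all basal sites. That share is not matched for width, as the median basal site was 299 bp wide and a wider site has more room for such parts. The increased-dosage site also overlapped a basal site of 299 bp, from 89905951 to 89906249.

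The site of MIR9-3 that held the consensus, with 1 mismatch, lay in an intron of the host 2749 bp upstream of the hairpin. It was 749 bp wide with order number 842 at the basal dosage (89907751 to 89908499) and 699 bp wide with order number 646 at the increased dosage (89907751 to 89908449). A site of 199 bp downstream of the hairpin, from 89915151 to 89915349, was listed only at the basal dosage, with order number 3283 and no match. It overlapped an exon of MIR9-3HG and spanned another annotated transcript start of that host. POLG, which encodes the mitochondrial DNA polymerase, was the nearest protein-coding gene, 26109 bp from the site at the host's 5′ end.

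Far beyond the 10 kb limit, MIR9-3HG had another wide site in an intron. It was 999 bp wide at the basal dosage (89962501 to 89963499, order number 187) and 899 bp wide at the increased dosage (89962501 to 89963399, order number 189), and lay 51164 bp from the hairpin. Its best match had 3 mismatches.

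MIR132 and MIR212, whose transcription in neurons responds to activity through CREB, lie next to each other on the minus strand of chromosome 17, from 1953202 to 1953302 and from 1953565 to 1953674. Both were placed by an exact match of the RefSeq hairpin, and no host on their strand was annotated. A single site covered both hairpins at each dosage. It was 899 bp wide at the basal dosage (1953201 to 1954099, order number 953) and 949 bp wide at the increased dosage (1953151 to 1954099, order number 1007). Its consensus, with no mismatch, lay between the hairpins on their own strand, 154 bp from MIR132 and 95 bp from MIR212. The nearest protein-coding gene was HIC1, which encodes a transcriptional repressor, 3349 bp away.

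MIR153-1 lies on chromosome 2 from 220158833 to 220158922 on the minus strand within PTPRN, a protein-coding gene for a secretory granule protein of neuroendocrine cells. No site lay within 10 kb, and the nearest was 13879 bp away at both dosages, just outside the limit. The farthest nearest site among the genes inside the limit was that of MIR9-1, at 5274 bp in the basal list. The PTPRN site overlapped an exon near the host's 5′ end, which is at 220174370, but did not reach that end. In the basal list its midpoint was 113 bp from an annotated transcript start inside the gene. The site was 749 bp wide at the basal dosage (220172801 to 220173549, order number 490) and 849 bp wide at the increased dosage (220172801 to 220173649, order number 553). Its consensus had no mismatch. The 3 matches within 10 kb of the MIR153-1 hairpin had 2 mismatches each and lay in no site.

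MIR7-3HG lies on chromosome 19 from 4769043 to 4785089 on the plus strand and carries MIR7-3, a source of miR-7, which is abundant in neuroendocrine and pituitary cells. Its site spanned the 5′ end of the gene and was the first of the members' sites in each list, with order number 8 at both dosages. It ran from 4768851 to 4770549 at the basal dosage, 1699 bp wide, and from 4768701 to 4770649 at the increased dosage, 1949 bp wide. The MIR7-3 hairpin lay 133 bp beyond its edge at the basal and 33 bp at the increased dosage. The pair of matches in it, each with 1 mismatch, lay on the minus strand. FEM1A, which encodes an adaptor of a ubiquitin ligase, was the nearest protein-coding gene at 21197 bp.

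**Figure D2:**
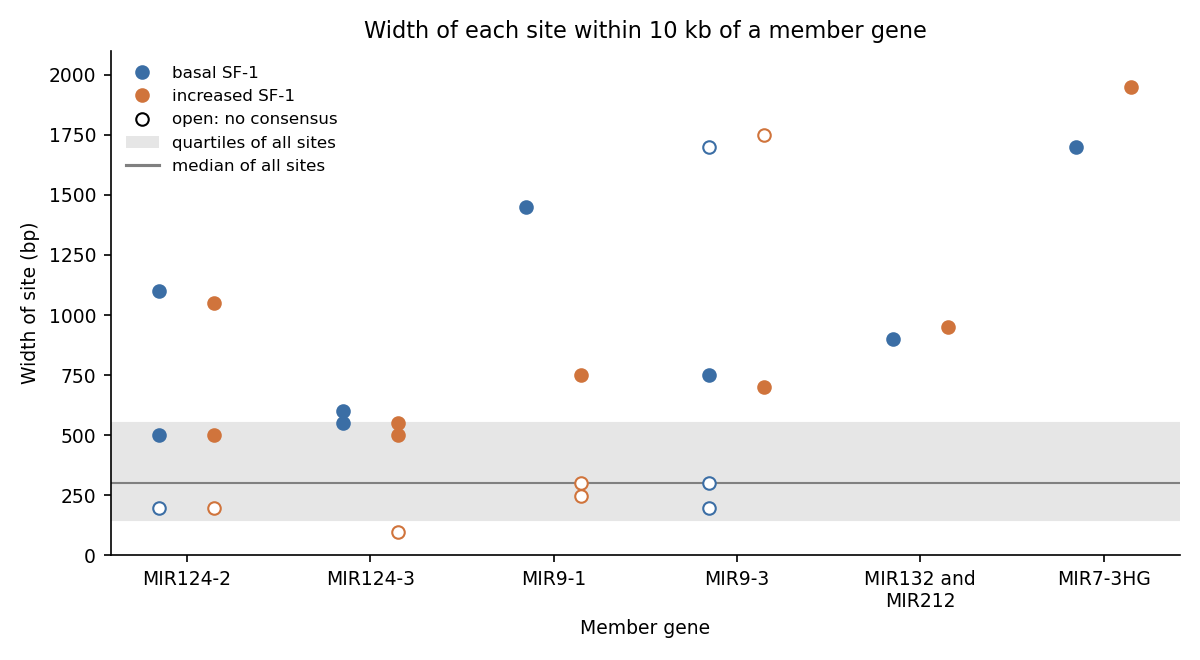
Width in bp of each site within 10 kb of a member gene at the basal (blue) and increased (orange) SF-1 dosage, 1 point per site. Open points hold no consensus with up to 2 mismatches. The band spans the quartiles of all sites, 149 to 549 bp, and the line is their median of 299 bp, the same in both lists.

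Member sites had a median width of 674.0 bp at the basal and 549.0 bp at the increased dosage, beside 299 bp over all sites of either list. At each dosage 9 of them were in the wider 50% of the list. Widths ranged from 199 to 1699 bp at the basal and from 99 to 1949 bp at the increased dosage. In each list 2 member sites, at MIR9-3 and MIR7-3HG, had order numbers up to 100. The lists held 5323 sites at the basal and 5059 at the increased dosage. The narrow sites stood beside wide ones at MIR124-2, MIR124-3, MIR9-1 and MIR9-3, as the plot of widths shows.

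Of the 12 basal member sites, 11 overlapped a site of the increased-dosage list by at least 1 bp (91.7%, interval 64.6 to 98.5). Of all basal sites 64.5% did so. In the other direction 11 of 13 member sites were shared (84.6%, interval 57.8 to 95.7), beside 67.9% of all increased-dosage sites. The sites in 1 list only were the 199 bp site at MIR9-3 in the basal list, and the 99 bp site at MIR124-3 and the 299 bp site at MIR9-1 in the increased-dosage list. Presence in 1 list of 1 library has no replicate check, and these sites were 99 to 299 bp wide with order numbers of 2925 or more.

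Widths moved in both directions between dosages. The site at MIR7-3HG was 250 bp wider at the increased dosage and that at MIR132 and MIR212 50 bp wider. The downstream site of MIR124-2 was narrower by 50 bp, and the downstream site of MIR124-3 was of the same width. Apart from MIR9-1, where the basal site was met by more than one increased-dosage site, and the 299 bp basal site of MIR9-3, no overlapping pair differed by more than 250 bp.

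The consensus was in 8 of 12 member sites at the basal dosage (66.7%, interval 39.1 to 86.2) and in 8 of 13 at the increased dosage (61.5%, interval 35.5 to 82.3). Over all sites the shares were 40.7% and 42.1%. In windows of the same widths moved 10 kb to either side of every site they were 1.79% and 1.80%. With no mismatch the consensus was in 4 member sites at each dosage, at MIR124-2, MIR124-3, MIR9-1 and the MIR132 and MIR212 site. Over all sites the consensus with no mismatch was in 11.2% at the basal and 11.8% at the increased dosage. All 8 member sites with the consensus were shared at each dosage, and the sites listed at 1 dosage only held none. Over all basal sites 93.4% of those with the consensus and 44.6% of those without it were shared, and at the increased dosage the shares were 94.8% and 48.4%.

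Member sites with the consensus were 499 bp wide or more at both dosages, with medians of 824.0 bp at the basal and 724.0 bp at the increased dosage. Those without it had a median of 249.0 bp at each dosage, and the widest of them was the site at the 5′ end of MIR9-3HG. Over all basal sites the medians were 499 bp with the consensus and 199 bp without it. Width and the consensus are not independent measures, because a wider site has more bases in which a match can fall.

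Not every match near a member lay in a site. In the 9 genes and 10 kb to either side there were 4 distinct matches with no mismatch, and each lay in a site at both dosages. Of 6 matches with 1 mismatch, 4 lay in a site at both dosages. Of 11 with 2 mismatches, 1 did so, upstream of MIR124-2. The unlisted matches with 1 mismatch were both near MIR124-3, 3255 bp upstream of the hairpin on the plus strand (first base at 61806583), and 9435 bp downstream of it (first base at 61819373).

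**Figure D3:**
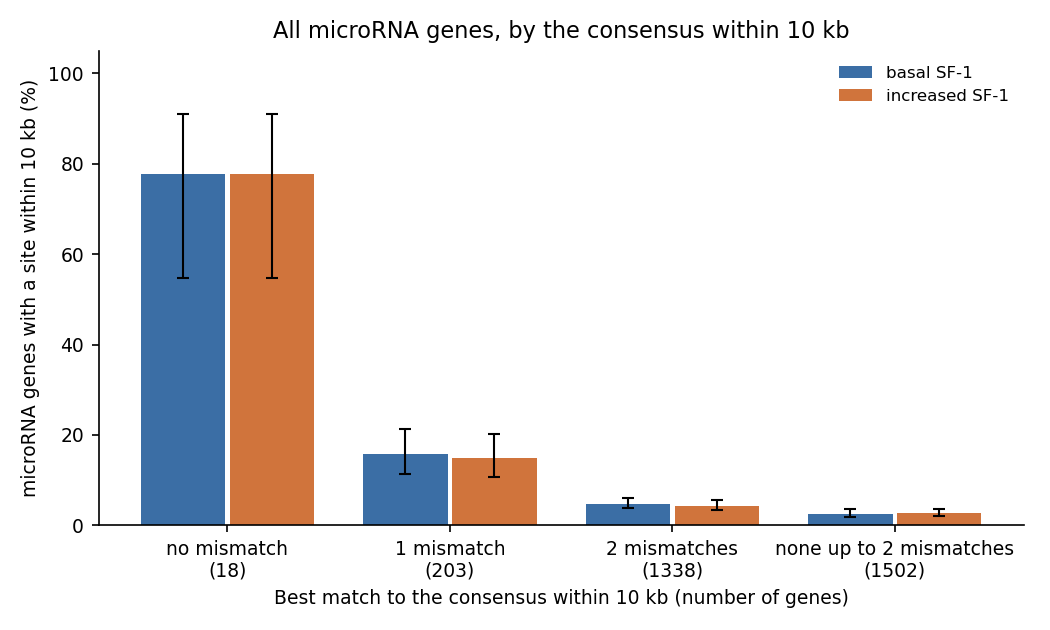
Percentage of all microRNA genes with a site within 10 kb, by the best match to the consensus within 10 kb of the gene, at the basal (blue) and increased (orange) SF-1 dosage. Bars start at 0, error bars are 95% Wilson intervals, and numbers in brackets count genes. The share was 77.8% with no mismatch and 2.60% with no match at the basal dosage.

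Over all microRNA genes the count was by gene, with any site within 10 kb, whether or not it held the match. No share of single matches lying in a site is given for all microRNA genes, so the counts above have no like measure beside them. The shares by gene fell in the same order. Of the 18 genes with an unmismatched consensus within 10 kb, 14 had a site at each dosage (77.8%, interval 54.8 to 91.0). With 1 mismatch as the best match it was 32 of 203 at the basal (15.8%) and 30 at the increased dosage (14.8%). With 2 mismatches it was 64 of 1338 (4.78%) and 58 (4.33%), and with no match up to 2 mismatches 39 of 1502 (2.60%) and 40 (2.66%). MIR124-2, MIR124-3, MIR9-1, MIR132 and MIR212 are 5 of the 18. Without the members, 9 of the other 13 had a site at each dosage (69.2%).

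**Figure D4:**
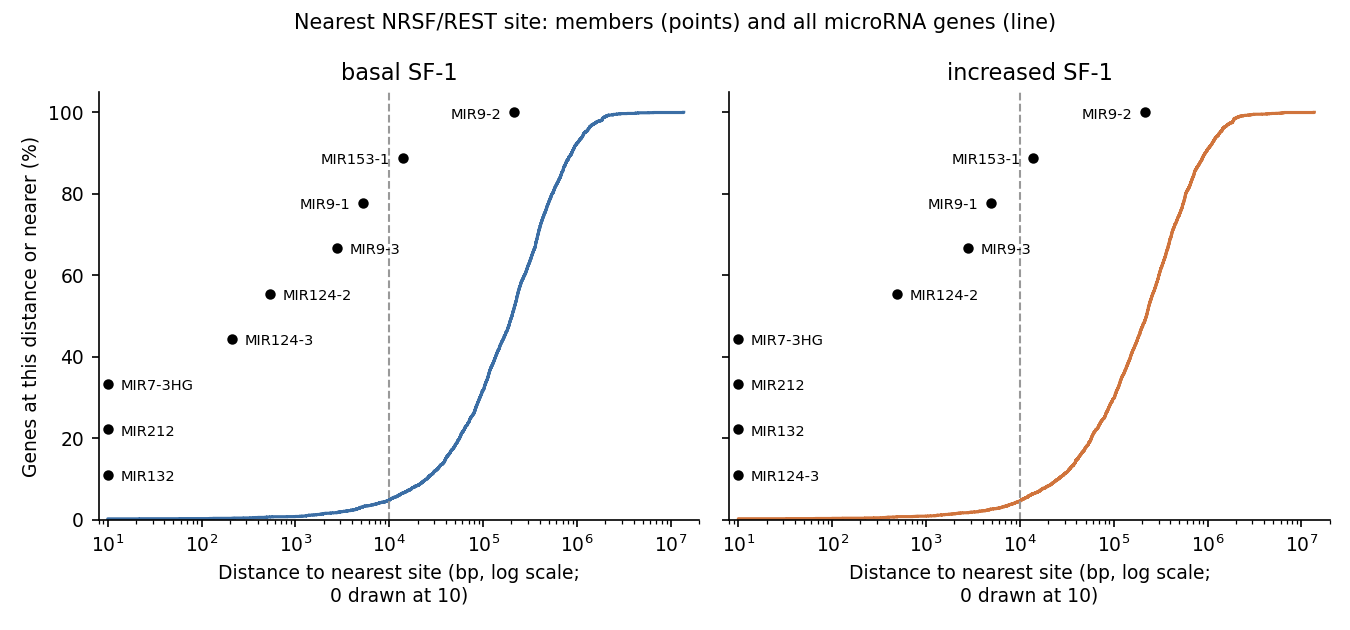
Distance from a gene to its nearest NRSF/REST site (log axis, a distance of 0 drawn at 10 bp) against the percentage of genes at that distance or nearer, for the 9 members (points) and all 3061 microRNA genes (line), at the basal and increased SF-1 dosage. The dashed line is the 10 kb limit. Of the members, 7 lie to its left at each dosage.

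The median distance from a member to its nearest site was 537.0 bp at the basal and 487.0 bp at the increased dosage. Over all 3061 microRNA genes the median was 201802 bp at the basal dosage (quartiles 73460 and 446032 bp) and 222648 bp at the increased dosage (quartiles 79284 and 501191 bp). MIR9-2, at 213472 bp in the basal list, was the only member near that median.

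A further list of 38 microRNA genes, known from the nervous system or as other copies of a member microRNA, was examined in the same way. At the basal dosage 10 had a site within 10 kb (26.3%, interval 15.0 to 42.0) and at the increased dosage 9 (23.7%). They were MIR7-2, MIR7-3, MIR129-2, MIR137, MIR139, MIR184, MIR330, MIR375 and MIR95 at both dosages, and MIR129-1 at the basal dosage only. MIR7-3 is the hairpin of MIR7-3HG and has that gene's site. Of 28 placed genes from a list of 30 known chiefly from other tissues or expressed widely, 3 had a site at each dosage (10.7%, interval 3.71 to 27.2). These were MIR133A2, and MIR133B and MIR206, which share a site and are known from muscle.

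**Figure D5:**
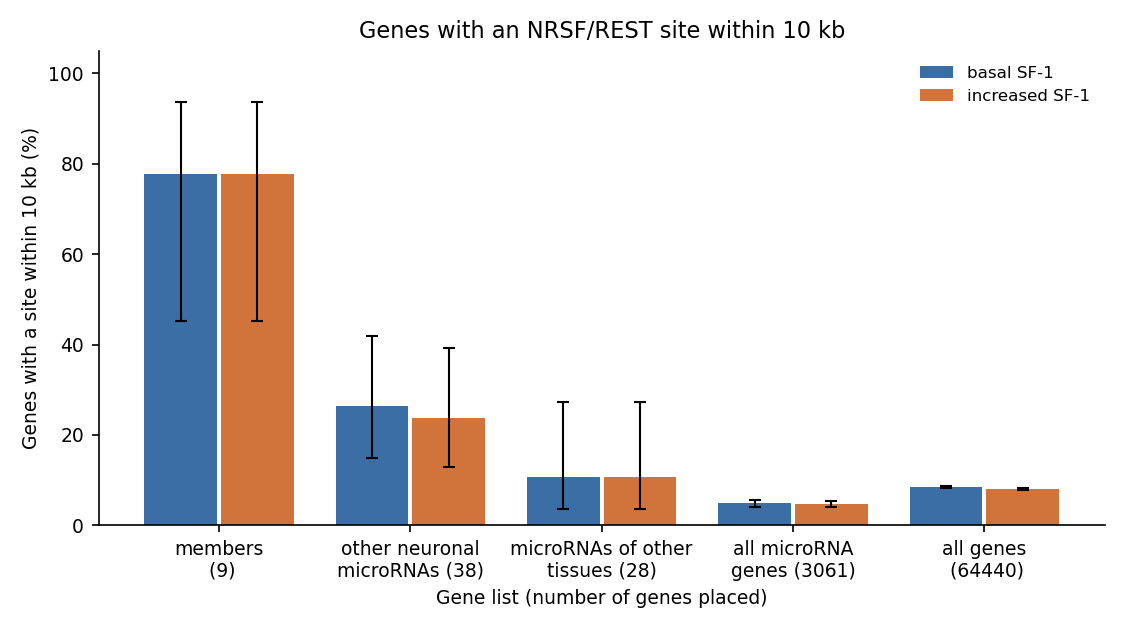
Percentage of genes with an NRSF/REST site within 10 kb in each list, at the basal (blue) and increased (orange) SF-1 dosage. Bars start at 0, error bars are 95% Wilson intervals, and the number of genes placed is in brackets. Members stood at 77.8% at each dosage and all microRNA genes at 4.87% and 4.64%.

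Beside that of MIR7-3, the widest sites of the further neuronal list were at MIR7-2, MIR137 and MIR129-2. At MIR7-2, another source of miR-7, the site lay 5557 bp upstream of the hairpin on chromosome 15 and was 999 bp wide at the basal (order number 104) and 1099 bp at the increased dosage (order number 106). At MIR137, which acts in neuronal maturation, the site lay 1824 bp upstream of the hairpin in an intron of MIR137HG, 749 bp wide at the basal (order number 178) and 699 bp wide at the increased dosage (order number 190). At MIR129-2 it was 699 bp (order number 248) and 799 bp wide (order number 256). None of these held the consensus within 2 mismatches.

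Further sites of that list were at MIR139, MIR184, MIR330 and MIR375, from 299 to 449 bp wide over both dosages, and each was shared and held the consensus with 1 or 2 mismatches. The site of MIR375, a microRNA of endocrine cells, lay 9513 bp from the hairpin and overlapped an exon of CRYBA2. The basal site of MIR129-1 was 199 bp wide with order number 3396, was listed at that dosage only, and had no match up to 3 mismatches.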

How the data were processed

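NRSF/REST was immunoprecipitated from H295R/TR SF-1 cells and sequenced, 1 library per SF-1 dosage. The shared protocol of the labels speaks of SF-1 complexes, but the titles name NRSF/REST for both libraries. Per the study's methods reads were aligned to hg19 with ELAND, and the submitters' processing notes name CASAVA 1.6. The peak caller's settings for the NRSF/REST lists are not given in the sources used here. The authors deposited a list of sites per dosage, with boundaries, an order number and a score, which is 1000 for every site and was not used. No read counts came with the lists, so depth is unknown. Starts were read as in a BED file and are given counted from 1.

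Genes were those of GENCODE release 44 lifted to GRCh37 (64440 genes, 3043 of them microRNA genes). Another 18 microRNA genes were placed by an exact single match of their RefSeq hairpin, 3 members among them, and 16 strands were taken from RefSeq. A host is an annotated long noncoding or protein-coding gene on the same strand. Distances run from the nearest edge of a site to the nearest edge of the gene. The motif search, run with pysam 0.24.0 in Python 3.11.15, and the distance step were tested on simulated data and recovered 200 of 200 planted items each. Intervals are 95% Wilson intervals (scipy 1.17.1). The named genes are the members, their hosts, genes of both further lists with a site, and the nearest protein-coding genes. Members and lists were chosen with earlier results of these data known. No test was made, because there was 1 library per dosage. Alternatives covered the distance limit, the use of midpoints, hosts and only the wider sites, the overlap rule and the consensus. They are described at the end. The details of 1 site of the further neuronal list are not reported here.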

Additional observations from a re-analysis of the deposited data

How the results depend on the processing

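Of 108 alternative values, 66 stayed within 1.5 times the value reported. The number of members with a site did so under each alternative, at 5 to 9. MIR9-2 had no site within 100 kb. By the host's bounds 9 of 10 genes, now with MIR124-1 and MIR153-1, had a site. With limits of 2 and 100 kb, sites near members numbered 4 and 20 at the basal and 5 and 23 at the increased dosage. All microRNA genes with a site numbered 48, 95, 307, 556 and 973 at limits of 2, 5, 25, 50 and 100 kb in the basal list, with 46, 82, 302, 542 and 911 in the increased-dosage list. They numbered 81 and 73 with the widest 50% of each list, 474 and 488 by host bounds, and, in an alternative chosen after seeing the data, 65 and 64 among the 1225 with RefSeq symbols, which is 5.31% and 5.22%. The further neuronal list had 3, 17 and 22 genes with a site at 2, 50 and 100 kb at each dosage. The list of other tissues had 1 and 5 at 2 and 25 kb at each dosage, 7 and 12 at 50 and 100 kb in the basal list, 5 and 10 in the other list, and 0 at each dosage with the widest 50%. The consensus with no mismatch was in 4 member sites at each dosage. With up to 2 mismatches, it was within 300 bp around the midpoint in 5 basal member sites. Merging sites within 500 bp gave a median member width of 874.0 bp at the increased dosage. To the site's midpoint the median distance was 1086 bp at the basal and 1011 bp at the increased dosage. These follow from how each alternative counts. No paired analysis was possible because each dosage had 1 library. The number of libraries, and the unknown depth and calling threshold, limit what an absent site shows.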

Other observations

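The SF-1 consensus, searched as CAAGGTCA, CAAGGCCA or CAAGGACA on both strands, was in 0 of the 12 basal and 0 of the 13 increased-dosage member sites. A count of 0 allows up to 3 of either number of sites, which is 23.1% of the increased-dosage sites. Over all sites the shares were 11.4% and 11.5%.

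Among microRNA genes outside the members and both further lists, MIR1253, MIR2277 and MIR5089 had an unmismatched NRSF/REST consensus within 10 kb and a site at both dosages, while MIR1286 had such a consensus and no site at either dosage. They were picked after their values were seen, as the genes of that kind with a MIR symbol.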
